A study of Ipomoea batatas with 18 samples.

Results

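In roots of the high-starch sweetpotato cultivar Chuanshu 218, 190 of 46840 unigenes were listed at 1 FPKM or more in every library while being listed at exactly 0 in every library of the low-starch cultivar 15-94. FPKM is the number of sequenced fragments scaled by transcript length and by library size. The rows of the table, headed as gene IDs in the file, are called unigenes here, a word usually used for transcripts put together from reads without a genome, although how these rows were defined is not stated. The unigenes were chosen by these deposited FPKM values, all 9 high-starch and all 9 low-starch ones. The cultivar contrast therefore defines these unigenes and is given as a description, with no test. The choice set a minimum for every high-starch library, but used no difference between the 3 ages and no measure of how much FPKM a single read is worth.

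The study compared roots of Chuanshu 218 at 30, 65 and 100 days of age with roots of 15-94 at the same ages, 3 libraries per cultivar and age and 18 in all. Roots grew 1 to a pot in a naturally lit greenhouse, and the labels name no treatment. Starch class and cultivar coincide, each class being a single cultivar. The labels do not say which plants gave which library, so p-values measure only the spread between libraries, which may be partly technical.

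Sweetpotato forms storage roots by secondary thickening of some of its adventitious roots, in which starch accumulates in parenchyma cells. The crop is a clonally propagated, highly heterozygous polyploid, and cultivars can differ in which genes, gene copies and alleles they carry and express. Where transcripts are assembled from reads, a unigene can stand for a whole transcript, a fragment of one, or one of several alleles or gene copies. The table pairs no unigene with a gene name, and 0 of its IDs matched the gene table of assembly IBA_r1.0. The functions of the 190 unigenes, and root markers against which to check the tissue, could therefore not be read, and no sequence can be shown.

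Whether a library can show a transcript depends on its depth. The number of reads is not given, but low FPKM values lie on steps that correspond to whole reads. The FPKM value of 1 read, relative to the library where it was smallest (high-starch 30 d replicate 2), ran from 0 to 1.21 (log2) in the high-starch libraries and from 0.71 to 2.0 in the low-starch libraries. Without further scaling by the authors, a larger value means a shallower library. A few very abundant transcripts took much of the third replicate of the low-starch roots at both 65 and 100 days, whose top 10 unigenes held 25.8% (65 days) and 40.5% (100 days) of the summed FPKM; in the other 16 libraries they held 17.3% or less. With both of these libraries left out, 214 unigenes met the same limits.

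Listing in none of the low-starch libraries was less frequent than listing in all 9, but more frequent than listing in 1, 2, 3, 4, 5 or 6 of them. Of 17898 unigenes that reached 1 FPKM in each of the 9 high-starch libraries, 190 (1.06%) were at 0 in all 9 low-starch libraries and 16133 (90.1%) were above 0 in all 9. Between these ends the numbers were lowest at 2 low-starch libraries, with 53 unigenes, against 109 at 1 library and 764 at 8. The opposite listing, 1 FPKM or more in all 9 low-starch and 0 in all 9 high-starch libraries, held for 107 unigenes.

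**Figure D1:**
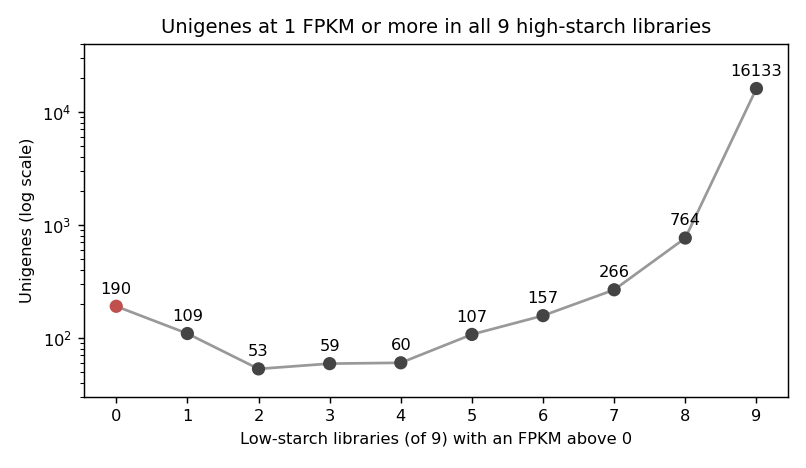
Number of unigenes (log axis) by how many of the 9 low-starch libraries listed them above 0, among the 17898 unigenes that reached 1 FPKM in each high-starch library. The 190 at 0 in every low-starch library are the red point, and the curve has its lowest point, 53, at 2 libraries.

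The unigenes nearest the limits were counted on both sides. Of the 190, 13 had a lowest high-starch value from 1 to under 1.1 FPKM, and the median of their means was 3.70 FPKM. Another 18 unigenes at 0 in all low-starch libraries just missed the limit, with a lowest value from 0.9 to under 1 FPKM and a median mean of 3.03 FPKM. In all, 507 unigenes were above 0 in every high-starch library and at 0 in every low-starch library. The 109 unigenes above 0 in a single low-starch library were spread over those libraries, 8 to 15 in each, at a median of 0.37 FPKM there. Their median high-starch mean was 6.50 FPKM, against 4.81 FPKM for the 190. Where that value could be turned into reads (70 unigenes), it was 1 read, within 0.2, for 50 of them and at most 3 reads for 63.

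The value of 1 read could be recovered for 118 of the 190 unigenes, which turns their FPKM values into reads. These 118 had a median of 22 reads per high-starch library, with single values from 3 to 375. For each unigene the median over the 9 libraries ran from 8 to 177 reads, was under 20 for 51 and was at least 50 for 22. The listing at 0 can be set against these numbers. At its mean high-starch level, a unigene of this group would have given a median of 137.3 reads over the 9 low-starch libraries together, with 51.1 reads for the lowest and 1167 for the highest, where 0 were listed. In low-starch 30 d replicate 1, the shallowest library, the same level corresponded to a median of 8.10 reads and to 3.01 at the lowest, close to the 3 reads that a count of 0 allows. Those 3 reads are 1.95 FPKM in that library for the median unigene (0.386 to 3.15 FPKM over the 118). All 118 means lay above that limit. Both sides of this comparison come from the values that chose the unigenes, so it is a description and no test. The other 72 gave no clear step size. If their values also lie on steps of whole reads, the mean level of each corresponded to at least 538.4 reads over the 9 low-starch libraries. The labels name no molecular identifiers, so such limits cover counting error only.

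The ranges of the value of 1 read overlapped between the cultivars. High-starch 65 d replicate 1 had a larger value of 1 read (0.86, log2) than 2 of the low-starch libraries, and high-starch 30 d replicate 1 (1.21) had a larger one than 7 of them. The part of depth in the listing was not tested.

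Many of the 190 unigenes moved in large steps per read. At a given depth the FPKM value of 1 read is larger the shorter the transcript, by the definition of FPKM. In the deepest library it was at least 0.1 FPKM for 93 of the 190 (48.9%) and below that for the other 97. Of these 97, the 72 unresolved ones are placed by an upper bound that assumes whole reads. Among 12285 other unigenes of the 17898 with a mean level in the same range, 1931 (15.7%) reached 0.1 FPKM. The medians of the recovered values were 0.162 FPKM (118 unigenes) and 0.0828 FPKM (5233 unigenes). The comparison was not tested, and the 2 sets differ in level, with a median mean of 4.81 FPKM for the 190 and 10.3 FPKM for the others. Since 0 reads in 9 libraries is met more easily by a transcript with few reads, the choice and the step size cannot be told apart here.

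**Figure D2:**
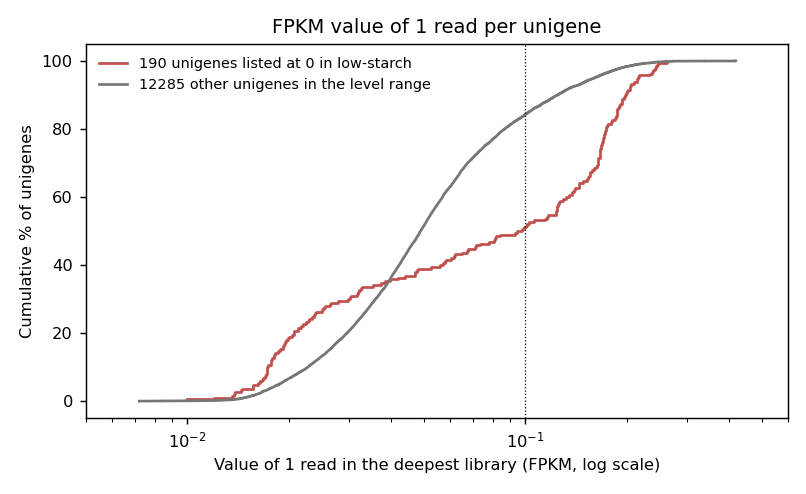
Cumulative percent of unigenes (vertical axis) by the FPKM value of 1 read in the deepest library (log axis), for the 190 unigenes and for 12285 others in the same range of levels. For unresolved unigenes, all of them at 0.0712 FPKM or less among the 190, an upper bound that assumes whole reads is drawn. At the dotted line, 0.1 FPKM, 48.9% of the 190 and 15.7% of the others lie to the right.

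Levels in the high-starch roots were low to moderate. The mean over the 9 libraries ran from 1.83 to 29.8 FPKM, with a median of 4.81 FPKM and quartiles of 3.64 and 7.97 FPKM. A mean under 5 FPKM was found for 98 of them (1 under 2 FPKM), from 5 to under 10 for 59, from 10 to under 20 for 23 and of 20 FPKM or more for 10. At least 2 FPKM in every high-starch library was reached by 81, at least 5 FPKM by 20 and at least 10 FPKM by 5, which were the 5 with the highest means. All 190 together took between 0.116% and 0.155% of the FPKM of a high-starch library. For the 30-day libraries that share averaged 0.141% ± 0.011, for the 65-day ones 0.150% ± 0.008 and for the 100-day ones 0.127% ± 0.016 (SD, n = 3 per age).

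The most abundant unigene of the group had 31.3, 17.1 and 23.9 FPKM at 30 days, 56.0, 23.9 and 24.0 FPKM at 65 days, and 29.7, 38.9 and 23.7 FPKM at 100 days. Its ages overlapped, and 65 d replicate 1 was the highest library. The next in level had 14.0, 14.6 and 31.7 FPKM at 30 days, 36.9, 39.7 and 43.5 FPKM at 65 days, and 28.9, 20.9 and 21.8 FPKM at 100 days, so that its 3 libraries at 65 days lay above all others. The unigene ranked after these had 20.8, 29.3 and 24.8 FPKM at 30 days, 10.1, 40.1 and 54.6 FPKM at 65 days, and 10.5, 22.5 and 37.4 FPKM at 100 days. It varied more within 65 and 100 days than between the ages.

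**Figure D3:**
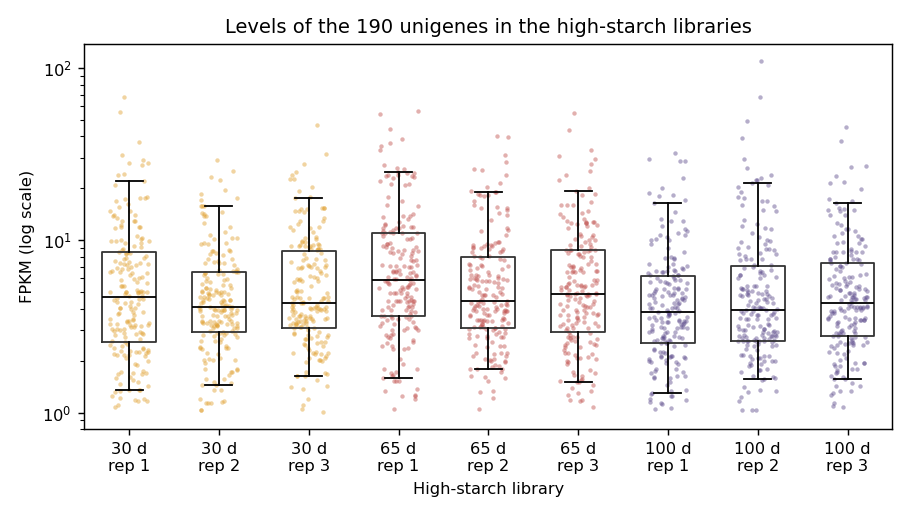
FPKM (log axis) of the 190 unigenes in each of the 9 high-starch libraries, by age and replicate. Points are unigenes, boxes span the quartiles with the median as a line, and whiskers reach the 5th and 95th percentiles. The medians run from 3.81 FPKM (100 d replicate 1) to 5.91 FPKM (65 d replicate 1). The low-starch libraries are not drawn, since every value there is 0.

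Spread between libraries was wide for single unigenes. The coefficient of variation over the 9 high-starch libraries had a median of 0.498 and ran from 0.238 to 1.53, and the highest library exceeded the lowest by a median factor of 4.77. Within an age, the median coefficient was 0.440 for the 30-day, 0.446 for the 65-day and 0.354 for the 100-day libraries. For the 118 unigenes with known reads it was 0.409, 0.418 and 0.355 at the 3 ages, where counting error alone would give 0.245, 0.218 and 0.227. For the 12285 others in the same range of levels the median coefficient over the 9 libraries was 0.441.

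Libraries of the same age were only slightly more alike than libraries of different ages. Across the 190 unigenes, log2(FPKM + 1) values of 2 libraries of the same age had a mean correlation of 0.550 (9 pairs, 0.369 to 0.695), and libraries of other ages 0.508 (27 pairs, 0.279 to 0.693). For the 12285 others the means were 0.601 and 0.584. Among the 190, the same-age pairs differed by age. They had 0.369, 0.475 and 0.570 at 30 days, 0.453, 0.421 and 0.694 at 65 days, and 0.695, 0.658 and 0.618 at 100 days. For 65 d replicate 1 the values with libraries of other ages ran from 0.385 to 0.657, against 0.453 and 0.421 within its age. These are correlations over unigenes, which share libraries and are not independent. The highest value of a unigene was in 65 d replicate 1 for 47 of the 190 (24.7%, against 16.6% of the others) and in 30 d replicate 2 for 8 (4.21%, against 14.7%). The first of these libraries had a large value of 1 read (0.86, log2) and the second the smallest of all. In 30 d replicate 1, whose value of 1 read was the largest of the high-starch libraries (1.21), the share went the other way. It was the highest library for 25 of the 190 (13.2%, against 15.3% of the others). In summed FPKM, 65 d replicate 1 was the largest of the high-starch libraries (1.22e+06) and 30 d replicate 2 the smallest (731156). The 190 made up 0.140% of the first total and 0.146% of the second. The parts of depth and of summed FPKM in which library was highest were not tested.

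The age comparisons ask how these transcripts changed as the high-starch roots grew older. The 190 were at their highest at 65 days more often than at the other ages. The highest of the 3 age means was that of 30 days for 44 unigenes (23.2%), that of 65 days for 95 and that of 100 days for 51 (26.8%). Among all 17898 unigenes the shares were 29.8% for 30 days, 34.0% for 65 days and 36.2% for 100 days. The most common order was 65 days highest and 100 days lowest, found for 63 of the 190 (33.2%), against 21.4% of the 28826 unigenes tested and 22.8% of the 17898. The count of this order was not planned beforehand. Over the 190, the median age mean was 4.61 FPKM for 30 days, 5.59 FPKM for 65 days and 4.15 FPKM for 100 days. The order with 65 days highest and 100 days lowest fell from 63 to 50 of the 190 without 65 d replicate 1. Without that library and 30 d replicate 1 it held for 47. Shares over all unigenes with these libraries left out are not given here.

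**Figure D4:**
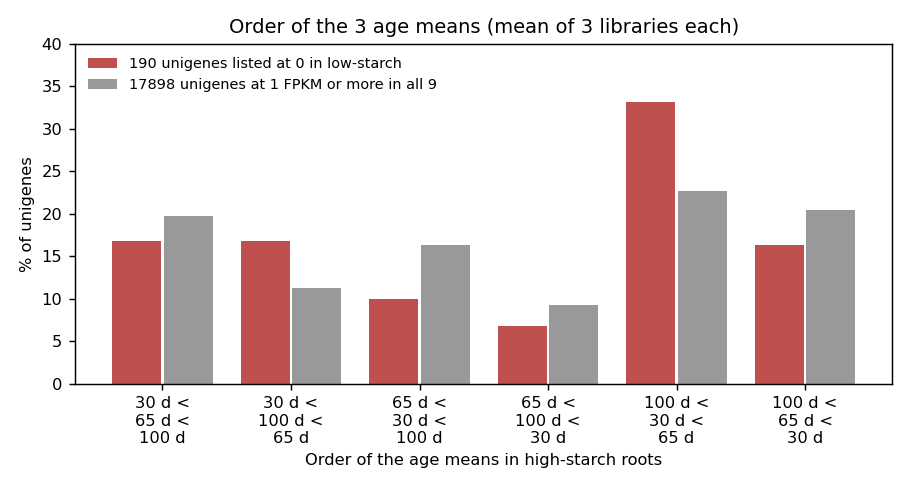
Percent of unigenes (vertical axis) with each order of the 3 age means in the high-starch cultivar, for the 190 unigenes (red) and for the 17898 unigenes that reached 1 FPKM in each high-starch library (grey). The order with 100 days lowest and 65 days highest holds 33.2% of the 190 and 22.8% of the 17898.

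None of the 190 passed a test of age. All 28826 unigenes that reached 1 FPKM in 3 or more high-starch libraries were fitted with limma on log2(FPKM + 1), a scale that understates changes of weak transcripts, and a call needed an adjusted p under 0.05 and a difference of at least 2-fold. All 190 met the filter, which they do by the way they were chosen. For 65 against 30 days the limma calls were 0 of the 190 and 0% of all tested in either direction. The log2 difference was positive for 123 of the 190 (64.7%, against 54.1% of all tested), with a median of 0.19 against 0.04, and 0.12 without 65 d replicate 1. At an unadjusted limma p under 0.05, 8 of the 190 were higher and 0 lower, against 1.45% and 0.718% of all tested, and the smallest adjusted p was 1.0.

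For 100 against 65 days limma called 0 of the 190 and 0% of all tested. The log2 difference was negative for 126 of the 190 (66.3%, against 49.4% of all tested), with a median of -0.20 against 0.01 for all tested. That median was -0.34 without 65 d replicate 2 and -0.32 without 100 d replicate 2. At an unadjusted limma p under 0.05, 1 was higher and 20 lower, against 3.25% and 4.27% of all tested, and the smallest adjusted p among the 190 was 0.641. For 100 against 30 days limma again called 0 of the 190 and 0% of all tested, with 83 positive and 107 negative log2 differences (56.3% negative, against 46.3% of all tested) and a median of -0.09 against 0.06. That median was -0.05 without 30 d replicate 1 and also without 30 d replicate 3. At an unadjusted p under 0.05, 6 were higher and 10 lower, against 3.95% and 4.29%, and the smallest adjusted p was 0.502. A limma F test over the 3 ages called 0% of all tested, and 12 of the 190 had an unadjusted p under 0.05, where the share of all tested was 6.03%. The median standard error of a log2 difference was 0.47 for the 190.

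Separation of the libraries of 2 ages needs no model. All 3 libraries at 65 days lay above all 3 at 30 days for 22 of the 190 (11.6%), against 2.7% of all tested and 2.29% of the 17898, and below them for 2 (1.05%), against 1.64% and 1.5%. All 3 libraries at 100 days lay above all 3 at 65 days for 3 of the 190 (1.58%), against 5.97% of all tested and 6.91% of the 17898, and below them for 32 (16.8%), against 8.21% and 8.9%. For 100 against 30 days, 11 of the 190 (5.79%) lay above, against 8.63% of all tested and 8.99% of the 17898, and 17 (8.95%) below, against 8.03% and 9.12%. The 65-day libraries enter both of the first comparisons. Only the separation of 100 from 30 days was planned beforehand, and those with the 65-day libraries were not. With quantile normalization, tried after the data were seen, 14 rather than 22 lay above at 65 against 30 days, with no share over all unigenes given for that setting. Of the 93 unigenes with at least 0.1 FPKM per read, 17 (18.3%) had all libraries at 100 days below those at 65 days, and of the other 97, 15 (15.5%) did. The order of age means with 65 days highest and 100 days lowest was more unevenly split. It held for 36 of the 93 (38.7%) and for 27 of the 97 (27.8%), against 22.8% of the 17898. Neither split was tested.

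The unigenes that differed most between 100 and 30 days are named by ID, whether or not they passed the test. Iba_12794 had 1.32, 6.67 and 6.19 FPKM at 30 days, 11.8, 18.3 and 12.7 FPKM at 65 days, and 12.9, 109.0 and 16.4 FPKM at 100 days. Every library at 65 and 100 days lay above those at 30 days, and 100 d replicate 2 stood far above the rest. The log2 difference of 100 against 30 days was 2.56 (SE 0.75, limma adjusted p = 0.502), and 1.62 without 100 d replicate 2.

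Iba_07762 had 9.92, 2.36 and 9.25 FPKM at 30 days, 23.0, 17.9 and 6.58 FPKM at 65 days, and 32.2, 17.6 and 14.1 FPKM at 100 days. Its libraries at 100 days lay above those at 30 days, and those at 65 days overlapped with both. The log2 difference of 100 against 30 days was 1.54 (SE 0.59, limma adjusted p = 0.560), and 0.99 without 30 d replicate 2.

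Iba_35123 had 27.96, 8.31 and 11.8 FPKM at 30 days, 21.3, 5.92 and 8.67 FPKM at 65 days, and 1.75, 4.99 and 3.56 FPKM at 100 days. All libraries at 100 days lay below all others, and replicate 1 was the highest at both 30 and 65 days. The log2 difference of 100 against 30 days was -1.84 (SE 0.57, limma adjusted p = 0.513). Iba_36956 had 3.77, 7.74 and 9.28 FPKM at 30 days, 4.07, 7.76 and 3.58 FPKM at 65 days, and 2.46, 1.79 and 1.43 FPKM at 100 days. Here 100 against 30 days gave -1.40 on the log2 scale, with SE 0.45 and a limma adjusted p = 0.513. For this unigene the reads were recovered: 8, 38 and 31 at 30 days, 11, 36 and 11 at 65 days, and 10, 7 and 5 at 100 days. The libraries at 100 days again lay below all others in FPKM, on no more than 10 reads each.

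**Figure D5:**
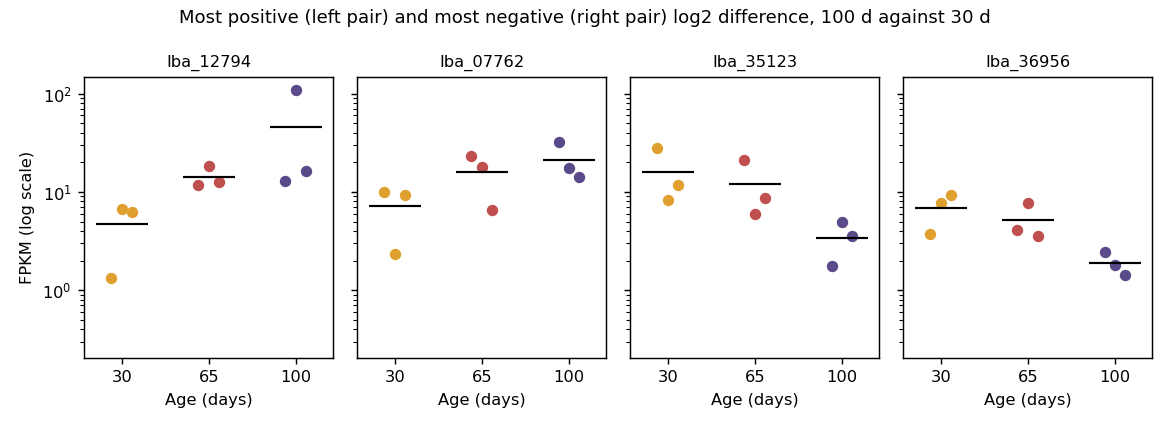
FPKM (log axis) by age in the high-starch cultivar for the 2 unigenes with the most positive and the 2 with the most negative log2 difference of 100 against 30 days. Points are libraries (n = 3 per age) and lines are means. The libraries at 100 days lie above those at 30 days in the left pair and below them in the right pair, which the choice favours.

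The highest age mean was a median of 1.80 times the lowest for the 190, against 1.55 times for the 17898. It was at least 2 times the lowest for 71 of the 190 (37.4%, against 25.4% of the 17898) and at least 3 times for 15 (7.89%, against 7.79%). On the log2(FPKM + 1) scale, 10 of the 190 were at least 2-fold higher and 5 at least 2-fold lower at 65 days against 30 days, 2 and 18 at 100 days against 65 days, and 9 and 12 at 100 days against 30 days, each without passing the test. The shares of all tested unigenes at 2-fold on this scale are not given here, so these counts cannot be read as particular to the 190.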

How the data were processed

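RNA was measured in 18 libraries of sweetpotato roots, 3 per cultivar and age, made with a stranded mRNA kit, per the labels' protocols. The authors deposited FPKM values for 46840 unigenes in 1 table, where the header of every value column named a single library. edgeR appears in the submitters' processing notes without a role or version. Steps not given in the sources used here include how the rows were defined, alignment, counting and any scaling of libraries.

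The members, tests and named unigenes were chosen with earlier results of these data known. Named are the 2 unigenes with the most positive and the 2 with the most negative log2 difference of 100 against 30 days. Ages were compared on log2(FPKM + 1) by limma 3.58.1 (R 4.3.3, eBayes trend) in the 9 high-starch libraries only, because the zeros of the low-starch libraries would narrow the spread of these unigenes. The adjustment was Benjamini-Hochberg within each comparison over all 28826 unigenes that reached 1 FPKM in 3 or more of these libraries. The value of 1 read was fitted to the steps between values, with a rounding tolerance of 0.0055 FPKM and an ambiguity limit of 0.001. The fit shifted by a factor of 2 the unit of any library whose reads came out mostly even. Odd reads then made up 50.3% to 58.0% by library, a share that is therefore no independent check. Replicate numbers were checked for pairing. Python 3.11.15, NumPy 2.4.6 and pandas 2.3.3 were used for the rest.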

Additional observations from a re-analysis of the deposited data

How the results depend on the processing

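The size of the group depended on its limits. It was 325 at a minimum of 0.5 FPKM, 81 at 2 FPKM and 20 at 5 FPKM, and the median of the mean levels was 8.01 FPKM at the 2 FPKM minimum. It was 198 with up to 0.1 FPKM allowed in the low-starch libraries, 185 with median-of-ratios scaling and 192 to 235 without single libraries, the largest without high-starch 30 d replicate 1. The median of the means was 4.69 to 5.0 FPKM without single libraries.

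In the other limma settings run, 0 of those of the 190 that passed the filter were called for any age. Over all unigenes tested, 1 was lower at 100 against 65 days with all 18 libraries fitted, and 0 were called in the other settings. Those were a replicate block, relative depth as a covariate, no eBayes trend, median-of-ratios scaling, quantile normalization, smaller pseudocounts (0.1, 0.5), other filters (5 FPKM, none) and each library left out. Deviations of same-numbered libraries from their age means correlated from -0.48 to 0.62. Between 30 and 65 days the values were 0.62 for replicate 1, 0.47 for replicate 2 and -0.02 for replicate 3. Libraries with different numbers were not compared in this way, so whether the numbers pair some of the samples is not settled. With the replicate block 0 of the 190 were called. The median log2 difference of the 190 without single libraries was 0.12 to 0.27 for 65 against 30 days, -0.34 to -0.17 for 100 against 65 days and -0.13 to -0.05 for 100 against 30 days. With relative depth as a covariate that median was 0.19 for 65 against 30 days. In the same fit it was -0.16 for 100 against 65 days and -0.03 for 100 against 30 days, both nearer to no change than these ranges.

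Counts of separated libraries can only grow when a library is left out. Shares over all unigenes in these settings are not given here. Whether the counts below exceed such shares can therefore not be read. Without single libraries, 30 to 39 of the 190 were above at 65 against 30 days and 5 to 13 below, 6 to 14 above and 36 to 55 below at 100 against 65 days, and 19 to 26 above and 24 to 35 below at 100 against 30 days. With quantile normalization, also added after seeing the data, 14 were above at 65 against 30 days. Without high-starch 30 d replicate 1 and 65 d replicate 1, chosen after seeing the data, the numbers were 47 and 22 for 65 against 30 days and 14 and 51 for 100 against 65 days. The order with 65 days highest and 100 days lowest held for 50 to 70 without single libraries and for 61 under both scalings, which were added after seeing the data. Median reads per library were 8 to 177 for the 118 unigenes whose reads were recovered, and the part of depth in the age comparisons was not tested beyond the fit with relative depth as a covariate.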
